A study of Mus musculus with 6 samples.

Results

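In the white adipose tissue (WAT) of control and Ntsr2 AKO mice, 47 genes for proteasome subunits or the factors that assemble them were examined. They were all the genes of the expression table whose symbol is Psma, Psmb, Psmc, Psmd, Psme, Psmf or Psmg followed by a number and whose mean normalized count over the 6 mice was at least 10, so that 47 of the 21456 listed genes were included. No gene with such a symbol fell below that minimum, and the lowest was Psma8, with a mean of 25.6 in the controls and 12.0 in the Ntsr2 AKO mice. The 2 similarly named genes Psmc3ip and Psme2b are not matched by the rule. By structure, the genes were sorted into 14 standard subunits of the core particle, 3 subunits of the immunoproteasome, 1 tissue-specific core subunit (Psma8), 6 ATPases and 11 other subunits of the 19S regulatory particle, 5 activators or inhibitors and 7 assembly factors.

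The proteasome degrades proteins that carry ubiquitin chains. Its barrel-shaped core particle holds the proteolytic sites in rings of beta subunits between rings of alpha subunits, and the 19S regulatory particle docks on the barrel, binds the ubiquitin chain, removes it and unfolds the substrate with a ring of ATPases. In cells exposed to interferon-gamma, 3 catalytic beta subunits are replaced by those of the immunoproteasome, which favors peptides for presentation on MHC class I. In adipocytes, the transcription factor NRF1 (Nfe2l1) is known to raise proteasome genes when proteasome activity is short, in particular in thermogenic brown adipocytes.

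The 3 control mice were Ntsr2 flox/flox, and the 3 Ntsr2 AKO mice carried Adipoq-cre in addition to Ntsr2 flox/flox, so that both groups held the floxed allele and differed by the recombinase. Ntsr2 encodes a receptor of the peptide neurotensin, and Adipoq-cre is active in white as well as brown adipocytes and not in the other cells of the tissue. All 6 received chow and are numbered 3, 4 and 5 in each group. The labels name the tissue only as adipose and the study's text as WATs, and the depot, age and sex behind these libraries are not given in the sources used here. The values are read counts divided by a size factor for each mouse, called normalized counts below. A log2 fold change, or a difference in log2, is that of Ntsr2 AKO minus control mice on the scale of log2(normalized count + 1), with its standard error (SE) from limma, the linear model fitted over all genes.

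Between 60405373 and 66098226 reads per control mouse and between 54085088 and 56268725 per Ntsr2 AKO mouse lay behind the table. The targeted gene, Ntsr2, had normalized counts of 83.8, 64.0 and 152.5 in the controls and of 3.10, 8.29 and 0 in the knockouts (log2 fold change -4.81, SE 0.91, limma adjusted p = 0.499, DESeq2 adjusted p = 1.11e-04). All 6 adipocyte markers were detected in every mouse, with summed levels of 977403 to 1458210 in control and 1264350 to 1453070 in Ntsr2 AKO mice. Most of that sum was Fabp4. Other markers varied more, with Lep at 5997 to 67722 in control and 9895 to 17222 in Ntsr2 AKO mice. Pparg was at 4724 to 14326 and 7567 to 9602. Of the 10 skeletal muscle markers listed, the sum was 965 and 391 in control mice 3 and 4, 1448 in Ntsr2 AKO mouse 3, 80206 and 176204 in Ntsr2 AKO mice 4 and 5, and 2535650 in control mouse 5. Myh4, a myosin heavy chain of fast fibers, was at 0 to 4.13 in the first 3 of these mice and at 32770.3 to 1132550 in the others. The RNA of 3 mice therefore held skeletal muscle transcripts, and a fit without these 3 mice leaves 2 control mice and 1 Ntsr2 AKO mouse. For genes shown by mouse, the values of this fit are given where it changed the difference by over 1.5 times or turned its sign. They stand beside the gene or in the closing section. For the other genes they are not given in every case, also where the fit changed the difference as much. Of 9 leukocyte markers, most of whose sum was Lyz2, the summed level was highest in control mouse 4 (50634) and Ntsr2 AKO mouse 5 (40728) and ranged from 14553 to 27278 in the other mice. The brown and beige markers Cidea and Ucp1 summed to 2134 to 4223 in control and 4542 to 6447 in Ntsr2 AKO mice, nearly all of it Cidea. Cidea was higher in Ntsr2 AKO mice without overlap (log2 fold change 0.77, SE 0.26, limma unadjusted p = 0.0224, limma adjusted p = 0.558), and Ucp1 overlapped. The sum of 4 progenitor and stroma markers reached 68023 in control and 122099 in Ntsr2 AKO mice, that of 3 endothelial markers 20812 and 18239.5, and that of 3 mesothelial markers was 105 to 413 in control and 36.3 to 72.9 in Ntsr2 AKO mice. Most of the mesothelial sum was Krt19 (log2 fold change -1.64, unadjusted p = 0.0369, limma adjusted p = 0.575, without overlap), and Upk3b was at 0 in 5 of the 6 mice. The part of these transcripts in the results was not tested. In such bulk RNA, fewer cells of a type and less RNA per cell cannot be told apart.

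As a measure of level, the normalized count was divided by the length of the longest protein-coding transcript of each gene. On this per-kb scale the standard core subunits were the most abundant group, with a median of 6336 (range 1707 to 9158). The 19S ATPases had a median of 3266, the other 19S subunits 2371, the immunoproteasome subunits 1904, the activators and inhibitors 1566, and the assembly factors 668. Psmb6, a standard catalytic subunit, was the highest gene at 9158 normalized counts per kb, followed by the alpha subunit Psma4 at 7669 and by Psme2, a subunit of the activator PA28, at 7632. At the other end were Psmf1, which encodes the inhibitor PI31 (307), and Psma8, a core subunit of the testis (11.1). The 19S subunits, which are present once in each particle, lay within a 2.24-fold range for the ATPases and a 2.78-fold range for the others. These levels depend on which transcript a cell uses, and a gene whose main transcript is shorter than its longest would read higher.

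**Figure D1:**
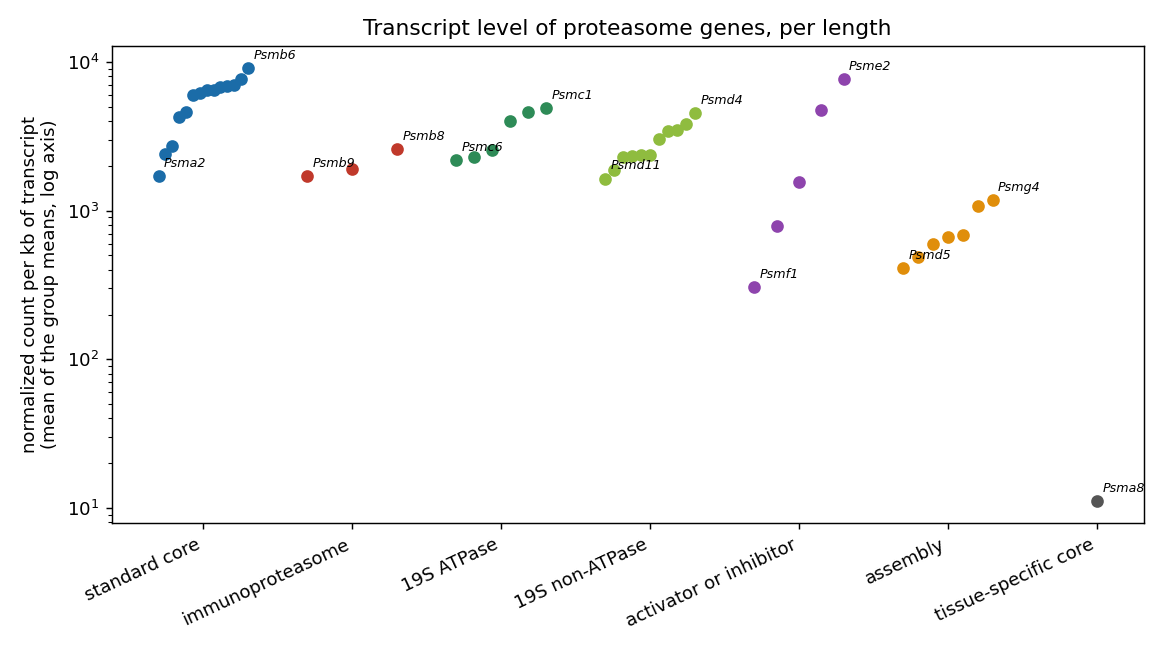
Level of the 47 proteasome genes by structural group, as normalized count per kb of transcript (mean of the 2 group means, log axis); each point is a gene and the lowest and highest of each group are named. The standard core subunits lie between 1707 and 9158, the assembly factors reach 1177 at most, and Psma8 lies apart at 11.1.

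The transcript levels of the 47 genes were then compared between Ntsr2 AKO and control mice. None of the 47 passed the adjusted threshold of 0.05 in limma, edgeR or DESeq2, which gave no adjusted p for Psma8, and the smallest adjusted p in limma was 0.522 (Psme3). Over all 16157 genes tested, 0.00619% passed in limma, 0% in edgeR and 1.50% (of the 14652 genes with an adjusted p) in DESeq2. At an unadjusted p under 0.05 in limma, 4 proteasome genes were lower in Ntsr2 AKO mice (Psme3, Psmc2, Psmd3 and Psmd11), against 5.27% of all genes, and 0 were higher, against 3.08%. The count of 4 was 1 without control mouse 4 or 5 or Ntsr2 AKO mouse 4 or 5, and 2 without Ntsr2 AKO mouse 3. edgeR and DESeq2 each gave 4 at an unadjusted p under 0.05, where 8.19% and 10.6% of all genes did so. For 8 genes (Psma8, Psmc2, Psmc3, Psmc5, Psmd2, Psmd3, Psmd11 and Psme3) the 3 Ntsr2 AKO mice all lay below the 3 control mice, as for 8.16% of all genes, and for 0 they all lay above, as for 6.82%. These shares, 8.51% for the unadjusted p and 17% for the separated genes, are of genes that vary together in the same mice. In log2 fold change, 27 of 47 were below 0 (57.4%, against 51.0% of all genes). The median was -0.03 (all genes -0.01), so that the set as a whole lay close to the other genes. With quantile normalization, 20 of 47 were below 0, against 44.4% of all genes, and the median was 0.07 (all genes 0.05).

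The 19S regulatory particle held the lower values. Of the 17 of its subunits matched by the rule, 16 had a log2 fold change below 0 (51.0% of all genes), with a median of -0.17. Among the 14 standard core subunits, 4 did, with a median of 0.02. All 6 ATPases were below 0 (median -0.17), as were 10 of the 11 other subunits (median -0.20), and the exception was Psmd13 at 0.04. Psmd13 shares 342 exon bases with Sirt3 on the opposite strand. The particle also holds subunits that the rule does not match. Of these, Adrm1 was at a log2 fold change of -0.27 and Shfm1 at 0.16, both with overlap between the groups. In 6 of the 17 and in 0 of the 14 standard core subunits the Ntsr2 AKO mice all lay below the control mice (8.16% of all genes). These counts describe genes that are measured in the same 6 mice, and no test was made over the group. With quantile normalization, under which the median of all genes was 0.05, the median of the 19S subunits was -0.07 with 15 of 17 below 0. That of the standard core was 0.14 with 1 of 14 below 0 (44.4% of all genes). On the deposited scale, the 19S median was -0.28 without control mouse 3 and -0.11 without control mouse 4. The core moved more with single mice, to a median of -0.10 with 11 of 14 below 0 without control mouse 3 or without Ntsr2 AKO mouse 5, to -0.00 with 7 of 14 without control mouse 5, and to 0.19 with 1 of 14 without control mouse 4. Without the 3 mice whose RNA held muscle transcripts, the 19S median was -0.10 with 14 of 17 below 0, and that of the standard core was -0.21 with 12 of 14 below 0, values that rest on 1 Ntsr2 AKO mouse.

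**Figure D2:**
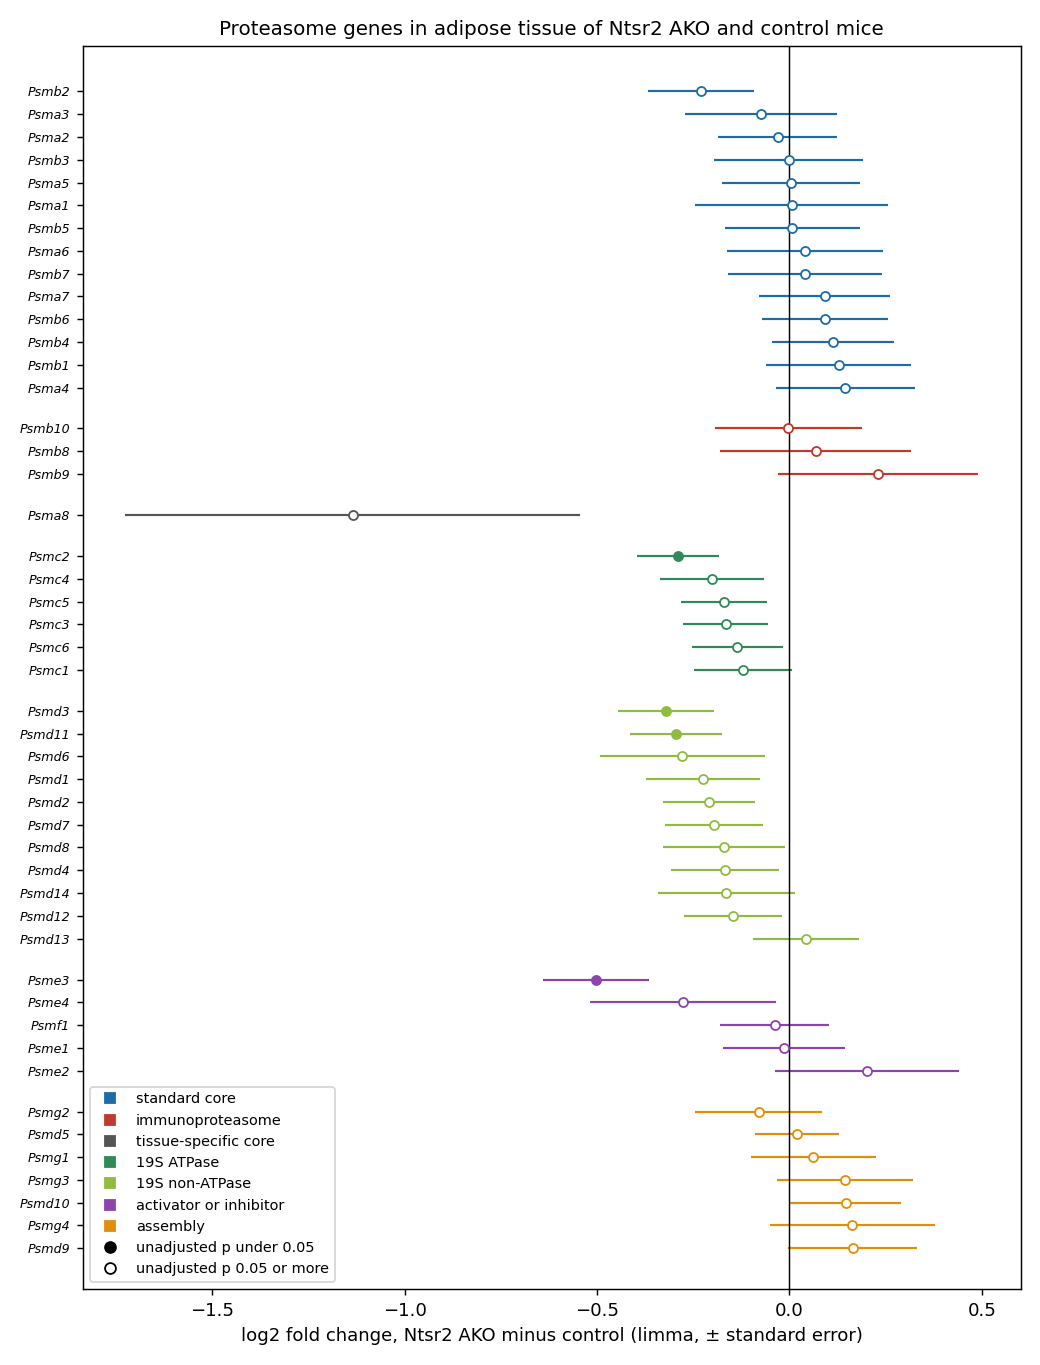
Log2 fold change of each of the 47 genes, Ntsr2 AKO minus control (limma on log2(normalized count + 1), bars are ± standard error, n = 3 mice per group), by structural group; filled points have an unadjusted p under 0.05. The points of 16 of the 17 19S subunits lie below 0, the standard core lies between -0.23 and 0.15, and only Psme3, Psmc2, Psmd3 and Psmd11 are filled.

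Among the ATPases, which unfold the substrate and thread it into the core, Psmc2 was at 4613, 5419 and 4943 in control mice and at 4057, 4079.7 and 4091 in Ntsr2 AKO mice. All 3 Ntsr2 AKO mice lay within a narrow range below the lowest control mouse (log2 fold change -0.29, SE 0.11, unadjusted p = 0.0311, limma adjusted p = 0.566). Psmc5 was at 5902, 7108 and 6327 in control and 5701, 5617 and 5812 in Ntsr2 AKO mice (difference in log2 -0.17). Psmc3 was at 6936, 7973 and 8149 in control and 6911, 6688 and 6911 in Ntsr2 AKO mice (difference in log2 -0.17). For both the groups were separate, but by less than 100 normalized counts between the lowest control and the highest Ntsr2 AKO mouse. Without the 3 mice with muscle transcripts, the difference was -0.11 for Psmc3. Psmc3 shares 215 exon bases with Slc39a13 on the opposite strand. Psmc1, Psmc4 and Psmc6 overlapped between the groups, with log2 fold changes of -0.12, -0.20 and -0.14. With quantile normalization, 5 of the 6 ATPases were below 0, and so were 5 of the 6 without the 3 mice with muscle transcripts. Psmc1 ranged from -0.21 to 0.07 over the alternative analyses described below.

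Among the 19S subunits that are not ATPases, Psmd3, a scaffold subunit of the lid, was at 5664, 5646 and 5619 in control mice and at 5191, 4031 and 4402 in Ntsr2 AKO mice. The control mice were almost equal and each Ntsr2 AKO mouse was below them (log2 fold change -0.32, SE 0.12, unadjusted p = 0.0371, limma adjusted p = 0.575). Psmd11, a lid subunit known to promote assembly of the complete proteasome, was at 4567, 5397 and 5534 in control and at 4453, 4041 and 4102 in Ntsr2 AKO mice. The highest Ntsr2 AKO mouse lay close to the lowest control mouse (log2 fold change -0.30, SE 0.12, unadjusted p = 0.0438, limma adjusted p = 0.590). Psmd2, a large base subunit that binds ubiquitin-like domains, was at 10047, 11043 and 12356.5 in control and at 10046, 9557 and 9232 in Ntsr2 AKO mice (difference in log2 -0.21). Its groups were separated by 1 mouse pair at nearly the same value. Without the 3 mice with muscle transcripts, the log2 fold change was -0.12 for Psmd3, -0.16 for Psmd11 and -0.07 for Psmd2. The ubiquitin receptor Psmd4 (log2 fold change -0.17), the deubiquitinase Psmd14 (-0.16) and Psmd1, Psmd6, Psmd7, Psmd8 and Psmd12 (-0.28 to -0.15) overlapped between the groups. Over the alternative analyses described below, Psmd1 ranged from -0.32 to 0.07 and Psmd14 from -0.31 to 0.006, while the others of these stayed below 0.

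Of the 14 standard core subunits, each overlapped between the groups. The gene of smallest p was Psmb2, at 3892, 4816 and 4182 in control and at 4092, 3243 and 3664 in Ntsr2 AKO mice (difference in log2 -0.23, SE 0.14, unadjusted p = 0.142, limma adjusted p = 0.683). Its difference was the lowest of the group, and that of the alpha subunit Psma4 was the highest, at 6841, 10665 and 8139.5 in control and 9018, 8705 and 10237 in Ntsr2 AKO mice (difference in log2 0.15, SE 0.18). Psmb4, a beta subunit without a proteolytic site, was at 7325, 9256 and 7343 in control and 7496, 8368 and 10058 in Ntsr2 AKO mice (difference in log2 0.11, SE 0.16). Psmb2 was at -0.08 and Psma4 at 0.08 in log2 fold change without the 3 mice with muscle transcripts.

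The 3 catalytic subunits of the standard core differed more between mice of a group than between the groups. Psmb5, which carries the chymotrypsin-like site, was at 4912, 6905 and 5613 in control and at 4970.0, 5706 and 6815 in Ntsr2 AKO mice (difference in log2 0.01, SE 0.18). Psmb6, which carries the caspase-like site, was at 6557, 8436 and 6266 in control and at 6424, 7884 and 8279.6 in Ntsr2 AKO mice (difference in log2 0.09, SE 0.16). Psmb7, which carries the trypsin-like site, was at 6066, 8515 and 7497 in control and at 5929, 7807 and 9108 in Ntsr2 AKO mice (difference in log2 0.04, SE 0.20). In both groups the mouse with the lowest value of these subunits was numbered 3, apart from Psmb6 in control mice. Psmb7 shares 405 exon bases with Nek6 on the opposite strand.

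**Figure D3:**
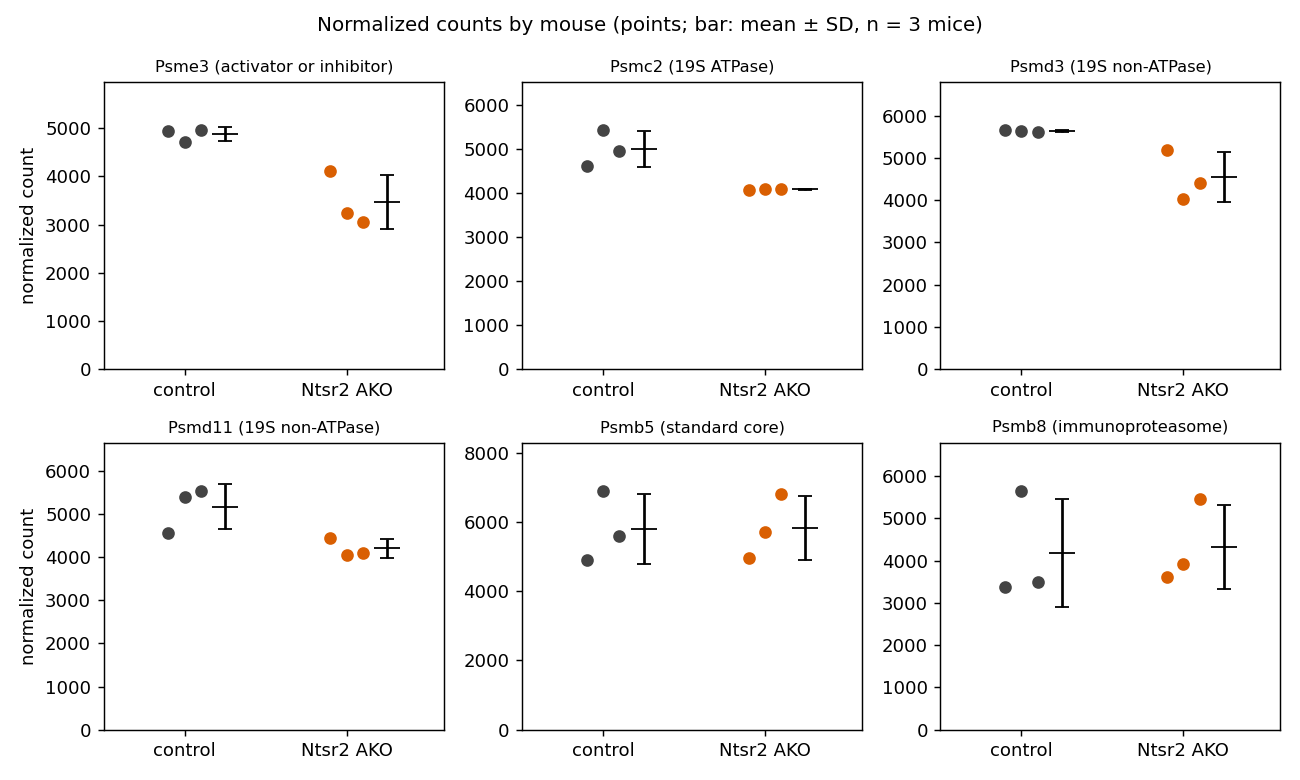
Normalized counts of 6 proteasome genes in each mouse (points), with mean ± SD (n = 3 mice per group) beside them. Psme3, Psmc2, Psmd3 and Psmd11 are separate between the groups, whereas Psmb5 and Psmb8 spread over the same range in both.

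The immunoproteasome subunits followed the same mice. Psmb8, which replaces Psmb5, was at 3377, 5649 and 3504 in control and at 3604, 3916 and 5453 in Ntsr2 AKO mice (difference in log2 0.07, SE 0.25). Psmb9, which replaces Psmb6, was at 1787, 3016 and 1661 in control and at 2182, 2181 and 3035 in Ntsr2 AKO mice (difference in log2 0.23, SE 0.26). Psmb10, which replaces Psmb7, was at 2236, 3204 and 2106 in control and at 2247, 2361 and 2826 in Ntsr2 AKO mice (difference in log2 -0.00, SE 0.19). In each of the 3, control mouse 4 and Ntsr2 AKO mouse 5 were the highest of their group. The same mice had the highest summed leukocyte markers, a sum that was mostly Lyz2. Single markers of that list differed in order. Cd3e, Cd8a and Cd79a were highest in control mouse 3 (183, 286 and 231). Nkg7 was highest in control mouse 4 (152) and Ms4a1 in Ntsr2 AKO mouse 5 (38.5). Whether leukocyte RNA has a part in these values was not tested. Psmb8 shares 498 exon bases with the antisense gene Gm20496 on the opposite strand. Psmb8 and Psmb9 lie beside Tap1 in the MHC region of chromosome 17 (GRCm38, 34197721 to 34201454 and 34181987 to 34187764), and Psmb9 shares 212 exon bases on the opposite strand with Tap1, so that reads of these 2 genes cannot be fully told apart without strand.

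On the per-kb scale the immunoproteasome subunits were below the subunits they replace, with Psmb8 at 2611 against 6474 for Psmb5, Psmb10 at 1904 against 6454 for Psmb7, and Psmb9 at 1709 against 9158 for Psmb6. The log2 ratio of normalized counts of each pair was compared between the groups by an exact permutation test over the 6 mice, in which 3 against 3 cannot give a p below 0.1. The ratio of Psmb8 to Psmb5 was -0.50 ± 0.20 in control and -0.44 ± 0.11 in Ntsr2 AKO mice (SD, n = 3, difference 0.06, exact two-sided p = 0.8). That of Psmb9 to Psmb6 was -1.76 ± 0.24 and -1.62 ± 0.21 (difference 0.14, exact p = 0.5), and that of Psmb10 to Psmb7 was -1.56 ± 0.24 and -1.60 ± 0.18 (difference -0.04, exact p = 1). Adjusted over the 3 ratios, each p was 1. The differences were smaller than the SD between mice of a group in each case.

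The standard core genes tended to be high or low in the same mice. The median deviation of the 14 standard core genes from their own mean was -0.25, 0.27 and -0.09 in control mice 3, 4 and 5 and -0.17, -0.02 and 0.23 in Ntsr2 AKO mice 3, 4 and 5 on the log2 scale. Control mouse 4 was the highest of the 6 for 11 of the 14 and Ntsr2 AKO mouse 5 for the other 3, while control mouse 3 was the lowest for 10. Psmb2 was an exception, with its lowest value in Ntsr2 AKO mouse 4, and Psma4 was higher in Ntsr2 AKO mouse 3 than in mouse 4. The 19S genes had another order, with medians of -0.07, 0.21 and 0.16 in control mice and -0.05, -0.18 and -0.06 in Ntsr2 AKO mice. Control mice 4 and 5 were each the highest for 8 of the 17 19S genes, and Ntsr2 AKO mouse 4 was the lowest for 12. Control mouse 3 and Ntsr2 AKO mice 3 and 5 were thus at nearly the same median 19S level, and the lower group median of Ntsr2 AKO mice rests on 2 high control mice and 1 low Ntsr2 AKO mouse.

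**Figure D4:**
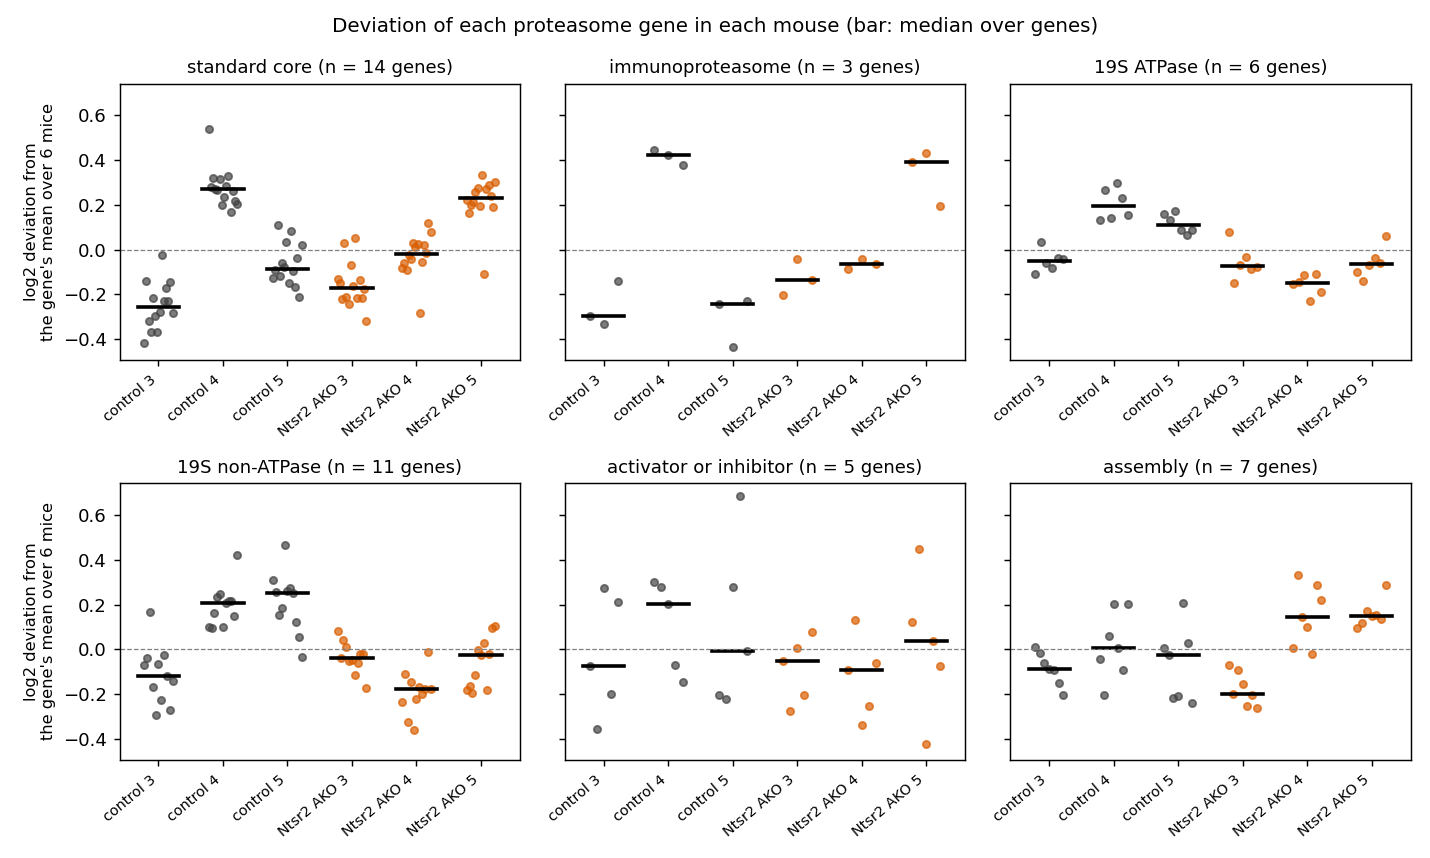
Deviation of each gene from its mean over the 6 mice (log2 of normalized count + 1), by structural group and mouse; points are genes and black bars are medians. Standard core and immunoproteasome genes are high in control mouse 4 and Ntsr2 AKO mouse 5, whereas the 19S genes are high in control mice 4 and 5 (medians 0.21 and 0.16).

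Within a mouse, the geometric mean per-kb level of the 17 19S genes was 0.636, 0.539 and 0.673 times that of the 14 standard core genes in control mice, and 0.616, 0.511 and 0.471 times in Ntsr2 AKO mice. The mean log2 ratio was -0.71 ± 0.17 in control and -0.92 ± 0.20 in Ntsr2 AKO mice (SD, n = 3). The difference of -0.21 was of the size of the spread between mice, and Ntsr2 AKO mouse 3 lay above control mouse 4.

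**Figure D5:**
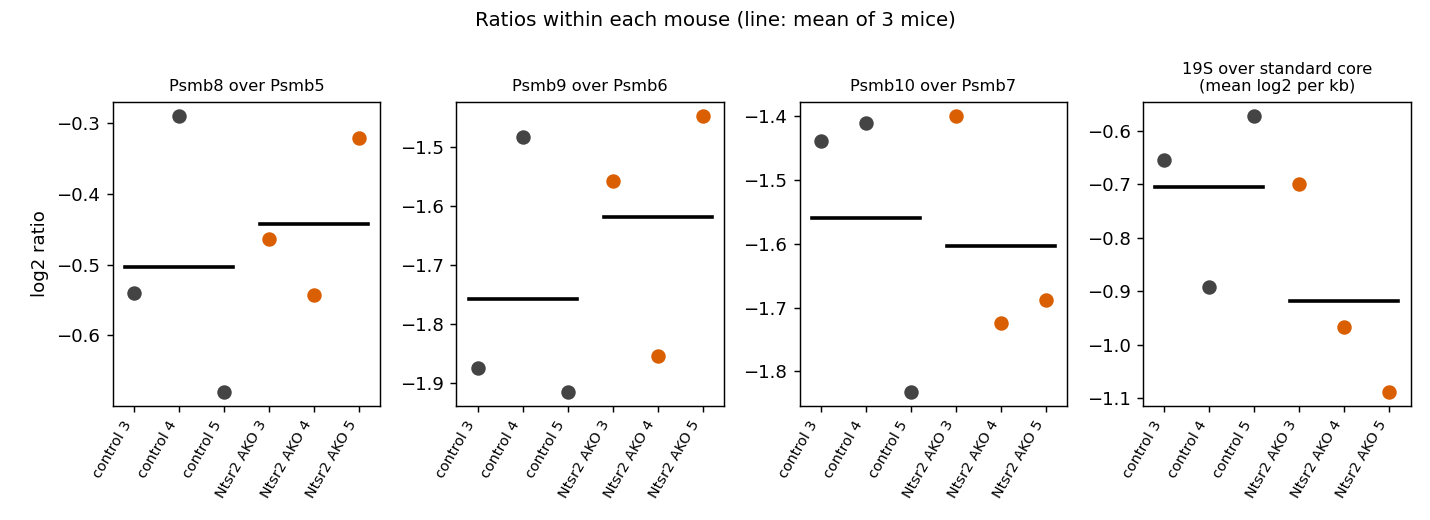
Log2 ratios within each mouse of the 3 pairs of immunoproteasome and standard catalytic subunits (normalized counts) and of the 19S to the standard core genes (mean log2 per kb); points are mice and lines are group means (n = 3). The groups overlap in all 4 panels, with a difference of -0.21 for the 19S to core ratio and of -0.04 to 0.14 for the pairs.

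Psme3 had the smallest p of the 47 genes. It encodes PA28gamma, the nuclear activator that opens the core for the degradation of some regulatory proteins without ubiquitin. It was at 4951, 4709.6 and 4962 in control mice and at 4112, 3241 and 3050.3 in Ntsr2 AKO mice. Every Ntsr2 AKO mouse lay below the control mice, and the fold change was 0.706 (log2 fold change -0.50, SE 0.14, unadjusted p = 0.00891, limma adjusted p = 0.522, DESeq2 adjusted p = 0.126). Its unadjusted p stayed under 0.05 in 15 of 16 alternative analyses, the exception being the fit without the 3 mice with muscle transcripts (log2 fold change -0.23), while its adjusted p was 0.126 or more in all of them. Psmc2, Psmd3 and Psmd11 stayed under it in 7 of 16 each.

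The other activators overlapped between the groups. Psme4, which encodes PA200, was at 4347, 4767 and 8042 in control and at 4342, 4195 and 5136 in Ntsr2 AKO mice (difference in log2 -0.28, SE 0.24). The high value was in control mouse 5, the mouse with the highest sum of muscle markers, and without it the log2 fold change was -0.00, and -0.07 without the 3 mice with muscle transcripts. Psme2 was at 5599, 8719.6 and 6149 in control and at 5927, 7851 and 9805 in Ntsr2 AKO mice (difference in log2 0.20, SE 0.24), with the same high mice as the immunoproteasome. Its partner in PA28, Psme1, was at a log2 fold change of -0.01, and Psmf1 at -0.04. Psme2 shares sequence with the retrocopy Psme2b, and its count is uncertain to that extent.

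Of the 7 assembly factors, 1 had a log2 fold change below 0 (51.0% of all genes) and 6 above 0, and each overlapped between the groups. Their median was 0.14, and -0.09 without the 3 mice with muscle transcripts, which rests on 1 Ntsr2 AKO mouse. Psmd10, the chaperone gankyrin of the 19S base, was at 938, 1018 and 842 in control and at 917, 1081 and 1101 in Ntsr2 AKO mice (difference in log2 0.15, SE 0.14). Psmd9, another chaperone of the base, was at 1233, 1081 and 1224 in control and at 1084, 1568 and 1351 in Ntsr2 AKO mice (difference in log2 0.16, SE 0.17). Psmg3, a chaperone of the core, was at 528, 549 and 597 in control and at 508, 715 and 644 in Ntsr2 AKO mice (difference in log2 0.14, SE 0.18). In each of them Ntsr2 AKO mouse 3 was within or below the control mice and the other Ntsr2 AKO mice were above all 3 of them. Psmd9 shares 1849 exon bases on the opposite strand with the long noncoding RNA gene Gm26745. Psmd5, also a chaperone of the base, was at 0.02, and Psmg1, Psmg2 and Psmg4 were at 0.06, -0.08 and 0.16.

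Psma8, which replaces Psma7 in the testis, was the least abundant gene, at 30.4, 20.6 and 25.9 in control and at 7.23, 19.7 and 9.11 in Ntsr2 AKO mice. The groups did not overlap (log2 fold change -1.14, SE 0.59, unadjusted p = 0.0971, limma adjusted p = 0.637), but counting error adds to the differences at this level. Its reads may also be shared with the similar Psma7.

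Promoter sequences were available for 39 of the 47 genes in RefSeq (GRCm38.p6, 250 bases before to 50 after the annotated start). Both strands were searched for TGANTCAGC and the looser TGANNNNGC, which are of the type bound by NRF1 and its relatives and of which the second includes every match of the first, for CCAAT, which is bound by NF-Y, and for GAAA repeated after any 2 bases, a type found in interferon-induced genes. A gene was counted if any of its promoters held the letters. TGANTCAGC was in 1 of 39 (2.56%), against 1.37% of all 27025 genes with a promoter. TGANNNNGC was in 22 of 39 (56.4%, all genes 45%), with 8 of 11 standard core genes, 2 of 5 ATPases and 4 of 9 other 19S genes. CCAAT was in 13 of 39 (33.3%, all genes 41.1%), and the repeat of GAAA in 5 of 39 (12.8%, all genes 3.99%), none of which was an immunoproteasome gene. A match describes letters in this window and is not a binding site. The promoters of 4 genes are shown, in 5′ to 3′ direction of the gene with the match in capitals. Psme3 and Psmc2 are the genes of smallest p among the activators and the 19S, each with CCAAT on one of the strands near the start (Psme3 at chr11:101315963-101316262 on the plus strand, 14 bases before the start, and Psmc2 at chr5:21785025-21785324 on the plus strand, 28 bases before). Psmb5 (chr14:54617946-54618245, minus strand) is the only gene with TGANTCAGC, 41 bases after the start, and Psme1 (chr14:55578244-55578543, plus strand) holds the repeat of GAAA on the opposite strand, 9 bases after the start.
Psme3: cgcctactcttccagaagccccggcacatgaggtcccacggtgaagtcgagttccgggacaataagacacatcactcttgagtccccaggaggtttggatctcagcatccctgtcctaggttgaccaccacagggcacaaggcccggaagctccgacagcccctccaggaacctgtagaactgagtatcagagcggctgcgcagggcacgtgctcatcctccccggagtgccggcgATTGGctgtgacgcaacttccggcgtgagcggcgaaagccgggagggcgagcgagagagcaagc
Psmc2: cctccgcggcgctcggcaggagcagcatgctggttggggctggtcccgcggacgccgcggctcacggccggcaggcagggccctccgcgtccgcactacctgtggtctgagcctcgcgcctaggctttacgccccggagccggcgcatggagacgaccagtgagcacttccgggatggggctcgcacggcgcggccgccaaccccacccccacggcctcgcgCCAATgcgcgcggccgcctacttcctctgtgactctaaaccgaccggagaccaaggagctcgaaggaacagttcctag
Psmb5: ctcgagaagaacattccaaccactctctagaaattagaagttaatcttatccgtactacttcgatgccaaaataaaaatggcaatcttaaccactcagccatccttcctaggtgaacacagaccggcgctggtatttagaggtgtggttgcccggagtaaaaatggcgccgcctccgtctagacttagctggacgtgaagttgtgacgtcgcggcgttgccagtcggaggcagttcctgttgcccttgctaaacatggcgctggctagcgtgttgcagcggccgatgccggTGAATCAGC
Psme1: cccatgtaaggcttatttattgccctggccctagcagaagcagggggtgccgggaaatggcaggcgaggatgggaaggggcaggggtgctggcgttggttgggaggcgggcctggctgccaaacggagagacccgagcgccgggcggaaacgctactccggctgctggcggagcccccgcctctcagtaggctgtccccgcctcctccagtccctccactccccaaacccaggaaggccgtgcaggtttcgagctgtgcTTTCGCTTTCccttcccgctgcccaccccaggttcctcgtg

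Genes that act with the proteasome were described by lists of known function. Of 16 genes for proteins that associate with it, including Adrm1 and Shfm1, 12 had a log2 fold change below 0 (51.0% of all genes). The median was -0.16, and 2 had an unadjusted p under 0.05, both lower (5.27% of all genes). Txnl1, a thioredoxin that binds the 19S particle, was at 4088, 4586 and 4571 in control and at 3523, 3489.9 and 3414 in Ntsr2 AKO mice. Its groups were apart by more than the spread within either (log2 fold change -0.34, SE 0.10, unadjusted p = 0.0132, limma adjusted p = 0.523). The other was Rad23b, which carries ubiquitinated proteins to the proteasome (log2 fold change -0.30). Uchl5, a deubiquitinase of the 19S particle, was the highest of the list, at 952, 1149 and 1179 in control and at 1060.1, 1361 and 1395 in Ntsr2 AKO mice (difference in log2 0.21, SE 0.16), and Pomp, the maturation factor of the core, was at 0.17. Without the 3 mice with muscle transcripts, Rad23b was at -0.15, Uchl5 at 0.02 and Pomp at -0.21.

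Of 15 genes of the NRF1 pathway, 11 were below 0 (51.0% of all genes) with a median of -0.21, and 4 had an unadjusted p under 0.05, all lower (5.27% of all genes). Nfe2l1 itself was at 30963, 22169.5 and 34329.9 in control and at 24517, 24114 and 17841.5 in Ntsr2 AKO mice. The groups overlapped through control mouse 4 (log2 fold change -0.39, SE 0.21, unadjusted p = 0.116, limma adjusted p = 0.654). Ddi2, the protease that activates NRF1, was at 5718, 5933 and 9991 in control and at 5360.2, 4135 and 3977 in Ntsr2 AKO mice (difference in log2 -0.65, unadjusted p = 0.0331, limma adjusted p = 0.566), with its highest value in control mouse 5. The groups did not overlap. Without the 3 mice with muscle transcripts, the log2 fold change was -0.10 for Nfe2l1 and -0.12 for Ddi2.

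Larger differences in that list belonged to Maff and Mafk, which encode small Maf proteins that pair with NRF1 and NRF2 on DNA, and to Bach1, a repressor that competes for the same partners. The other small Maf gene, Mafg, was at a log2 fold change of -0.21 with overlap. Maff was at 1888, 1095 and 2509 in control and at 798, 238 and 239.9 in Ntsr2 AKO mice. All 3 Ntsr2 AKO mice lay below the control mice (log2 fold change -2.27, SE 0.53, unadjusted p = 0.00392, limma adjusted p = 0.520), and Maff fell at the adjusted threshold in DESeq2 (adjusted p = 0.00833) but not in edgeR. Bach1 was at a log2 fold change of -1.10 (limma adjusted p = 0.566) without overlap, and Mafk at -0.96 (limma adjusted p = 0.558) with overlap. Without the 3 mice with muscle transcripts, Maff was at -0.85, Mafk at -0.48 and Mafg at 0.115. Among genes above 0, Fbxw7, an F-box protein that marks NRF1 for degradation, had the smallest p, at 793, 826 and 983 in control and at 969, 986 and 925 in Ntsr2 AKO mice (difference in log2 0.15, SE 0.14), and was at 0.26 without those mice.

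Of 10 genes for ubiquitin and the enzymes that activate it or its relatives, 6 were below 0 (51.0% of all genes) with a median of -0.04, and 0 had an unadjusted p under 0.05. Uba1, the main ubiquitin-activating enzyme, was at 10173, 10238 and 9938 in control and at 9763, 8237 and 7505 in Ntsr2 AKO mice, without overlap (log2 fold change -0.26, SE 0.13, unadjusted p = 0.084, limma adjusted p = 0.624). Uba1 was at -0.06 without the 3 mice with muscle transcripts. Ubb was at a log2 fold change of -0.02.

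Of 15 genes of the interferon-gamma response and MHC class I presentation, 11 were below 0 (51.0% of all genes) with a median of -0.07, and 2 had an unadjusted p under 0.05, both lower (5.27% of all genes). Nlrc5, the transactivator of MHC class I genes, was at 3765, 3682 and 3355 in control and at 3084, 2326 and 2547 in Ntsr2 AKO mice, without overlap (log2 fold change -0.45, SE 0.14, unadjusted p = 0.0145, limma adjusted p = 0.523), and was at -0.27 without the 3 mice with muscle transcripts. The other was Irf8, a transcription factor of myeloid cells (log2 fold change -0.62, limma adjusted p = 0.545). Tap1, which moves peptides into the endoplasmic reticulum, was at 2470.2, 3802 and 2508 in control and at 2693, 2864 and 3566 in Ntsr2 AKO mice (difference in log2 0.07, SE 0.21), and had its high values in the same mice as its neighbor Psmb9. B2m was at a log2 fold change of 0.03.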

How the data were processed

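Adipose RNA of 3 control and 3 Ntsr2 AKO mice was sequenced from unstranded libraries. The submitters' processing notes name the build mm10, HISAT2 and StringTie, and the paper's methods name Trimmomatic and DESeq2. The deposited signal values are normalized counts, that is, reads over a size factor for each mouse (read from the values: 100% of values were whole reads within 0.01 after division by the step of each column). Values were tested as log2(normalized count + 1) in R 4.3.3 with limma 3.58.1 (trend) over the 16157 genes with a mean of at least 10, with Benjamini-Hochberg adjustment over all of them at 0.05. Alternatives were edgeR 4.0.16 and DESeq2 1.42.0 on the recovered reads, other pseudocounts, filters and normalizations, and the omission of mice. The fits were tested on simulated data. The replicates are samples that the labels do not tie to separate animals beyond their titles, so p-values measure the spread between these samples. Depth bears on counting error only, which is small at these levels.

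Named genes were the catalytic and immunoproteasome subunits, the 3 of smallest p in each structural group, Nfe2l1, and the smallest p in each direction of each related list; any other gene named was picked with its values known. A few genes of the related lists, 1 of them due by this rule, are not reported here by name. The members and lists were chosen with earlier results of these data known. Lengths, positions and overlaps came from GENCODE M21 (GRCm38), where 13 of the 47 genes share exon bases with another gene. These are Psma4, Psma5, Psmb5, Psmb7, Psmb8, Psmb9, Psmc3, Psmd1, Psmd3, Psmd9, Psmd13, Psme1 and Psmg3, and the overlap is given beside only some of them. The deviations of mice with the same number had correlations of 0.445, -0.242 and 0.407, and those of mice with different numbers of -0.516 to 0.262. The numbers were not taken as pairs in the main fit, and a fit with the number as replicate block is among the alternatives.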

Additional observations from a re-analysis of the deposited data

How the results depend on the processing

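In all alternatives, 0 proteasome genes passed the adjusted threshold. The 4 genes lower at an unadjusted p became 2 without the mean-variance trend, 1 with quantile normalization and 1 with the replicate block. They became 1 to 5 when 1 mouse was left out: 2 without Ntsr2 AKO mouse 3, 1 without each of Ntsr2 AKO mice 4 and 5 and control mice 4 and 5. Over all genes and both directions, 1349 had such a p in the main fit and 1325 without the trend. There were 1245 with quantile normalization, 1303 with the replicate block, and 644 to 1688 with 1 mouse left out. Genes higher at an unadjusted p numbered 0 to 1 with 1 mouse left out (1 without control mouse 4). The 8 genes separated downward became 3 with quantile normalization, 20 without the mice with muscle transcripts and 8 to 18 with 1 mouse left out (18 without control mouse 3), and the 0 separated upward became 0 to 5 (5 without control mouse 4, 4 without Ntsr2 AKO mouse 3). The cause was not tested, but fewer mice separate more easily by construction. Without the mice with muscle transcripts, a gene counts as separated downward whenever the 1 remaining Ntsr2 AKO mouse is the lowest. The shares of all genes separated in these settings were not set beside these counts. The changes in the counts therefore cannot be read as particular to the proteasome genes.

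The median log2 fold change of the 19S ATPases was -0.054 with quantile normalization. Without the mice with muscle transcripts, the median was -0.21 for the standard core, -0.25 for the immunoproteasome, -0.14 for all 47 genes, -0.16 for activators and inhibitors and -0.092 for assembly factors. In that setting 7 of the 7 assembly factors were below 0. Among the genes shown by mouse, that setting also turned the log2 fold changes of Psmb5 (-0.23), Psmb6 (-0.21), Psmb7 (-0.28), Psmb8 (-0.28), Psmb9 (-0.089), Psmb4 (-0.14), Psme2 (-0.24), Psmd10 (-0.092), Psmd9 (-0.091), Psmg3 (-0.084) and Tap1 (-0.19). It turned the ratios of Psmb8 to Psmb5 (-0.048) and of Psmb10 to Psmb7 (0.025) as well. Psmb10 was at -0.25 in that setting, and quantile normalization turned it (0.093). With 1 mouse left out, the log2 fold change or ratio crossed 0 for Psmb5 (-0.11 to 0.14), Psmb7 (-0.10 to 0.21), Psmb8 (-0.11 to 0.31), Psmb10 (-0.12 to 0.18), Psma4 (-0.0031 to 0.32), Psmb4 (-0.0011 to 0.23), Tap1 (-0.046 to 0.28), the ratio of Psmb8 to Psmb5 (-0.028 to 0.17) and that of Psmb10 to Psmb7 (-0.18 to 0.031). So did the medians of the standard core (-0.10 without Ntsr2 AKO mouse 5 to 0.19 without control mouse 4), of the immunoproteasome (-0.10 to 0.31, without the same mice) and of all 47 genes (-0.12 to 0.067, likewise). The median of the 17 19S genes stayed below 0, from -0.28 to -0.11. Ntsr2 and Maff passed the adjusted threshold in DESeq2. A fit that leaves out 1 mouse or more assumes that the remaining mice vary alike, and the number of mice, not depth, limits the precision of all but Psma8.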
